A study of Mus musculus with 8 samples.

Results

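The nuclear receptor motif rows were the 44 of 579 rows of the deposited motif count matrices whose names began with a nuclear receptor symbol (NR1 to NR6, RAR, RXR, ESR, ESRR, THR, PPAR, VDR, ROR or HNF4). A motif row gives, for each nucleus, the counts in those peaks of its library that hold a match to a JASPAR binding matrix. The rows came from single-nucleus ATAC-seq, which counts transposase insertions in open chromatin, of the wild-type mouse embryonic forebrain. Samples came in pairs of 2 from the cortex (CTX) and from 3 ventral swellings, the ganglionic eminences, which are called medial (MGE), lateral (LGE) or caudal (CGE) and GE as a whole. All samples were of embryonic age E12.5 apart from CTX replicate 2, which was of age E14.5, so that age and replicate cannot be told apart within CTX. No treatment, transgene or deletion was named for any group, and the labels do not say how many embryos a sample held.

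Nuclear receptors are transcription factors that carry a zinc finger DNA-binding domain and, in most members, a pocket for a small lipophilic ligand such as retinoic acid, thyroid hormone, a steroid or an oxysterol. Most bind the core AGGTCA, either as monomers that also read the bases in front of it or as dimers on direct repeats, while the steroid receptors bind inverted repeats. In the embryonic forebrain the COUP-TF type receptors NR2F1 and NR2F2 are known for graded cortical and caudal ganglionic expression, and retinoic acid and thyroid hormone signaling for roles in neuron differentiation.

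Letters that many nuclear receptors are known to bind can be read in the genome under the peaks, and how far they match the motif rows was not tested. The binding matrices themselves were not used here, so the core AGGTCA and its direct repeat with 1 base between the copies (AGGTCANAGGTCA, called DR1 below), an element known to be bound by RXR, HNF4, PPAR with RXR and COUP-TF dimers, were read on both strands from GRCm38 (mm10). Of the 68274 merged regions in which each of the 8 libraries had a peak, 246 held a DR1, with 254 repeats between them, and the base between the copies was G in 155 of the 254 (61.0%) and A in 50. The 5 windows below show DR1 repeats of regions that differed between groups, each 5′ to 3′ on the strand of the repeat with the repeat in capitals and 24 flanking bases on either side. None of the 5 windows lay in a UTR.
Arid1b intron, chr17:5217410-5217470, minus strand: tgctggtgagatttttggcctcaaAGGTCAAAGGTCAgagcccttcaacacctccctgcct
Intergenic region nearest to Adgrb1, chr15:74217969-74218029, plus strand: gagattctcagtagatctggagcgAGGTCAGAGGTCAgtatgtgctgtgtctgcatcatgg
Intergenic region nearest to Slc1a3, chr15:8780177-8780237, minus strand: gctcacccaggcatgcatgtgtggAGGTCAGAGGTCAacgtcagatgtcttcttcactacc
Col4a4 intron, chr1:82475892-82475952, minus strand: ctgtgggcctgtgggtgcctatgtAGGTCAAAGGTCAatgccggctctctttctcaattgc
Intergenic region nearest to Wnt4, chr4:137211257-137211317, minus strand: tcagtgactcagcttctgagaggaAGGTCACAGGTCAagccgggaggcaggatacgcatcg

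The libraries held 3465 to 6845 nuclei, 77387940 to 138873845 counts in peaks and 2140731365 to 3846553671 motif counts. Motif counts exceeded peak counts 23.9- to 29.7-fold because a peak is counted for each motif it holds. In single nuclei, the highest value of any row was 0.918 to 0.949 counts for each count in peaks of that nucleus, by library. Peaks were called in each library separately, and MGE replicate 1 and LGE replicate 1 had the fewest, 105456 and 103633, against 142292 to 182638 in the others. The summed peak length ran from 87.2 to 168 Mb. Peaks within 1000 bp of a transcription start site took 41.2% and 48.7% of the counts in CTX and 50.7% to 57.4% in GE. Odd values made up 9.54% to 10.4% of the peak by nucleus counts in the 4 libraries of replicate 1 and 5.17% to 5.85% in those of replicate 2, so that the replicate sets differed without overlap. Any pair of libraries shared at most 1.17% of the smaller library's barcodes. In bulk sums such as these, fewer cells of a type and less accessible chromatin per cell cannot be told apart.

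The 44 rows were unequal in size. The VDR row, named for the vitamin D receptor, held 24% of the members' counts and ranked 19th of all 579 rows, and the row of Nr2e3, a photoreceptor orphan receptor, held 23.6% and ranked 26th. NR4A2, an immediate early orphan receptor needed by dopaminergic neurons, held 10.6%, and Nr5a2, an orphan receptor of stem cells and liver, held 5.85%. These 4 rows therefore set most of the summed share. The smallest row, ESRRB, an orphan receptor of pluripotent cells, held 0.112%. VDR and Nr2e3 counts lay in peaks with 23.1% and 22.5% of all peak counts on average, and the ESRRB counts in peaks with 0.106%. By subgroup, the 17 rows of RAR, PPAR, VDR and NR1 with their RXR dimers held 37.0% of the members' counts, the 8 rows of RXR, HNF4 and the other NR2 receptors 34.1%, the 3 NR4A rows 13.1%, the 5 ESR and ESRR rows 4.15%, the 4 NR2F rows 3.61%, the 4 ROR rows 1.57% and the 2 NR3C rows 0.618%.

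**Figure D1:**
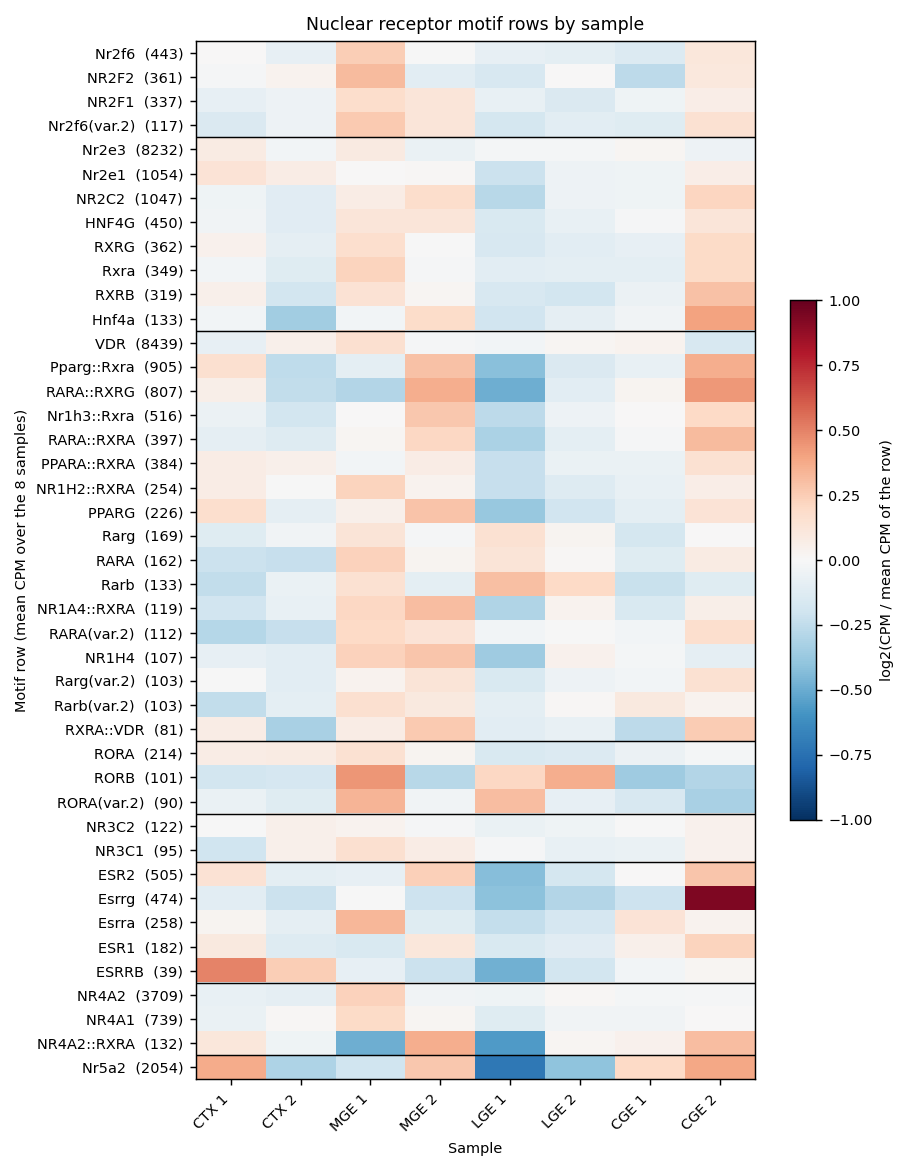
Each cell is the log2 of a row's counts scaled to a common motif total (CPM) in a sample over the row's mean of the 8 samples, for 43 of the 44 nuclear receptor rows (vertical, mean CPM in brackets, lines between subgroups) and the 8 samples (horizontal). Row maxima lay in MGE replicate 1 for 19 rows and in CGE replicate 2 for 13, and row minima in LGE replicate 1 for 25.

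Across samples the members varied about as much as other motifs: the highest over the lowest sample was 1.39-fold in the median member and 1.43-fold in the median of all other rows. NR3C2, the mineralocorticoid receptor, varied least, 1.083-fold, and Esrrg, an orphan estrogen-related receptor, most, 2.54-fold. The extremes fell in a few libraries. MGE replicate 1 was the highest sample for 19 members and CGE replicate 2 for 13, while LGE replicate 1 was the lowest for 25. MGE replicate 1 and LGE replicate 1 were also the libraries with the fewest peaks, and the part of the peak number in these levels was not tested.

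Nuclear receptor rows took 3.57 and 3.38% in CTX, 3.76 and 3.60 in MGE, 3.21 and 3.39 in LGE and 3.51 and 3.64 in CGE of all motif counts. The 2 MGE samples were above the 2 LGE samples, the 2 CGE samples too, and CTX lay between with overlap. The mean share was 3.68% ± 0.11 (SD, n = 2) in MGE, 3.30% ± 0.13 in LGE, 3.58% ± 0.09 in CGE and 3.47% ± 0.13 in CTX. MGE was therefore 1.12-fold LGE, 1.17-fold between the samples of replicate 1 and 1.06-fold between those of replicate 2. LGE was 0.922-fold CGE, 0.913 and 0.930 by replicate. MGE over CGE was 1.03, with 1.07 in replicate 1 and 0.989 in replicate 2, and CTX over the mean of GE was 0.987, with 1.02 and 0.954. In both of these the samples of the groups overlapped. The replicate numbers are not known to pair samples across groups, so ratios by replicate are only 1 possible matching. These pooled shares were given no test, since the members were chosen with earlier results of these data known.

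The COUP-TF type rows, NR2F1, NR2F2, Nr2f6 and Nr2f6(var.2), took 0.123 and 0.123% in CTX, 0.150 and 0.127 in MGE, 0.117 and 0.119 in LGE and 0.114 and 0.135 in CGE. MGE replicate 1 stood highest and CGE replicate 1 lowest, and the 2 CGE samples lay on either side of both LGE samples. MGE replicate 2 was higher than both LGE samples by less than the gap between the 2 MGE samples. The mean was 0.138% ± 0.016 (SD, n = 2) in MGE, 0.118% ± 0.002 in LGE, 0.124% ± 0.015 in CGE and 0.123% in CTX, where the 2 samples differed in the fourth decimal. MGE over LGE was 1.17 (1.28 and 1.07 by replicate), while MGE over CGE was 1.31 in replicate 1 and 0.940 in replicate 2, and LGE over CGE was 1.03 and 0.882. Of the 3 comparisons within GE, the samples of the 2 groups did not overlap only for MGE against LGE.

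The other 40 rows took 3.44 and 3.26% in CTX, 3.61 and 3.48 in MGE, 3.09 and 3.27 in LGE and 3.40 and 3.51 in CGE. Their order followed that of all members, since NR2F rows added little to the sum.

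**Figure D2:**
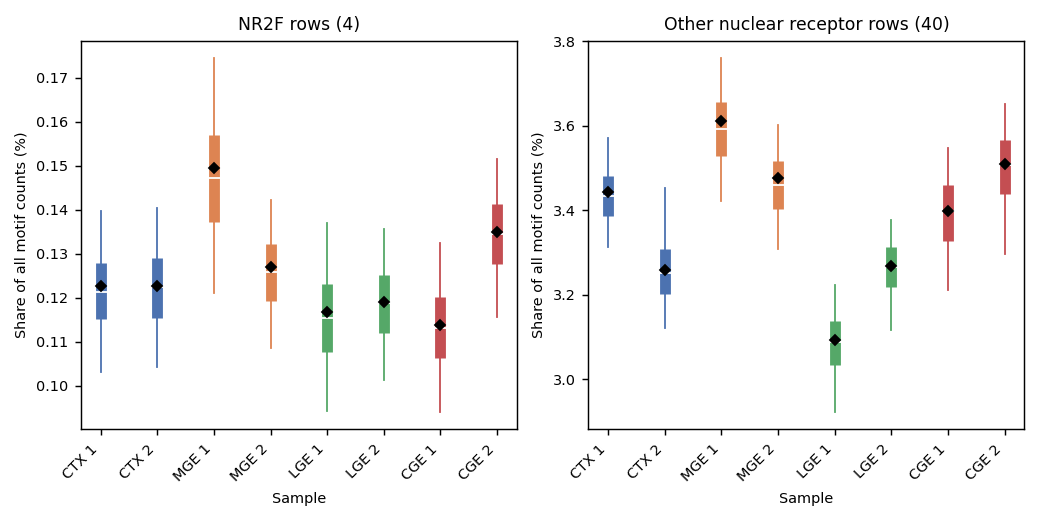
Share of all motif counts (%) by sample for the 4 NR2F rows (left) and the 40 other rows (right). Diamonds are shares of the summed counts, thick bars run from the 25th to the 75th percentile over nuclei with the median as a white line, and thin lines from the 5th to the 95th. The vertical axes do not start at 0. The NR2F share in MGE replicate 1 (0.150%) and the share of the other rows in LGE replicate 1 (3.09%) lie furthest from the other samples.

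Single nuclei lay close to their library's value. The median share over nuclei for all members was 3.56 and 3.37% in CTX, 3.74 and 3.58 in MGE, 3.20 and 3.39 in LGE and 3.51 and 3.64 in CGE. From the 25th to the 75th percentile the nuclei of LGE replicate 1 ran from 3.14% to 3.26% and those of MGE replicate 1 from 3.67% to 3.81%, so that these middle ranges did not overlap. The SD over nuclei was 0.086 to 0.114 percentage points. For NR2F rows the median nucleus had 0.121 and 0.122% in CTX, 0.147 and 0.126 in MGE, 0.115 and 0.119 in LGE and 0.113 and 0.134 in CGE, with an SD of 0.0106 to 0.0164 points, and a count of 0 was found in 1 nucleus of CTX replicate 1 and 2 nuclei of LGE replicate 1. Deeper nuclei had slightly higher member shares in 7 of the 8 libraries (Spearman's rho over nuclei -0.0465 to 0.339, a description over nuclei of a library that share its peaks).

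The 4 NR2F rows shared their highest sample, MGE replicate 1, while their lowest was CGE replicate 1 for Nr2f6 and NR2F2, LGE replicate 2 for NR2F1 and LGE replicate 1 for Nr2f6(var.2). The Nr2f6 row (MA0677.1), for a receptor that represses by competing for direct repeats, held 445 and 419 CPM in CTX, 524 and 442 in MGE, 420.0 and 415 in LGE and 403 and 479 in CGE. The NR2F2 row (MA1111.1), for COUP-TFII, held 357 and 369.7 CPM in CTX, 451 and 335 in MGE, 323 and 361 in LGE and 301 and 388 in CGE. The NR2F1 row (MA0017.2), for COUP-TFI, held 319 and 325 CPM in CTX, 381 and 366 in MGE, 321 and 305 in LGE and 327 and 352 in CGE, and both MGE samples were above both LGE and both CGE samples. The Nr2f6(var.2) row (MA0728.1), a second matrix of the same factor, held 106 and 113 CPM in CTX, 139.8 and 127 in MGE, 104 and 109 in LGE and 107 and 129.9 in CGE. In the edgeR quasi-likelihood test over all 579 rows, none passed an adjusted p of 0.05. Between MGE and LGE the NR2F1 row had log2 fold change 0.22 ± 0.08 (SE), adjusted p = 0.740, Nr2f6(var.2) had log2 fold change 0.29 ± 0.12 (SE), adjusted p = 0.740, Nr2f6 had log2 fold change 0.17 ± 0.11 (SE), adjusted p = 0.740 and NR2F2 had log2 fold change 0.16 ± 0.16 (SE), adjusted p = 0.750. Without MGE replicate 1 the median log2 fold change of the 4 was 0.16 in place of 0.20, and 3 of the 4 were still higher in MGE. Between LGE and CGE the 4 log2 fold changes ran from -0.14 to 0.01, and the row above 0, NR2F2, turned below it with RLE or total-count scaling. Without CGE replicate 2 the median of the 4 turned from -0.07 to 0.03.

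The rows that moved most like NR2F included other nuclear receptor rows. Over the 8 samples, the log2 CPM of the summed NR2F rows correlated with that of Rxra at Pearson's r = 0.925, NR4A1 at 0.872, RXRG at 0.865 and NR1H2::RXRA at 0.852. Among the rows that are no members its highest correlations were with Sox6 (Pearson's r = 0.884), TWIST1 (0.850), RBPJ (0.839), TCF3 (0.836) and FIGLA (0.829). These correlations are a description, since the rows of a library are counted over the same peaks and may share base composition. RXR and COUP-TF dimers are also known to bind the same DR1 element. Each of these 5 non-member rows also had its maximum in MGE replicate 1, with RBPJ at 2667 CPM against 2095 to 2206 in the other samples.

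In none of the 4 comparisons did a nuclear receptor row pass the test. edgeR called 0 of 44 members and 0 of 579 rows (0%) between CTX and GE, between MGE and LGE, between MGE and CGE, and between LGE and CGE. At an unadjusted p under 0.05 the members counted 4 between CTX and GE, against 21.8% of all rows, 8 between MGE and LGE, against 5.01%, 0 between MGE and CGE, against 2.07%, and 6 between LGE and CGE, against 9.84%. DESeq2 called 3 members between CTX and GE (15.5% of all rows), 1 between MGE and LGE (1.38%), and 0 in MGE against CGE and LGE against CGE (0.691% each), and limma called none. RORA and RARA were among the 3 members called by DESeq2 between CTX and GE, and the member called between MGE and LGE was RORA.

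**Figure D3:**
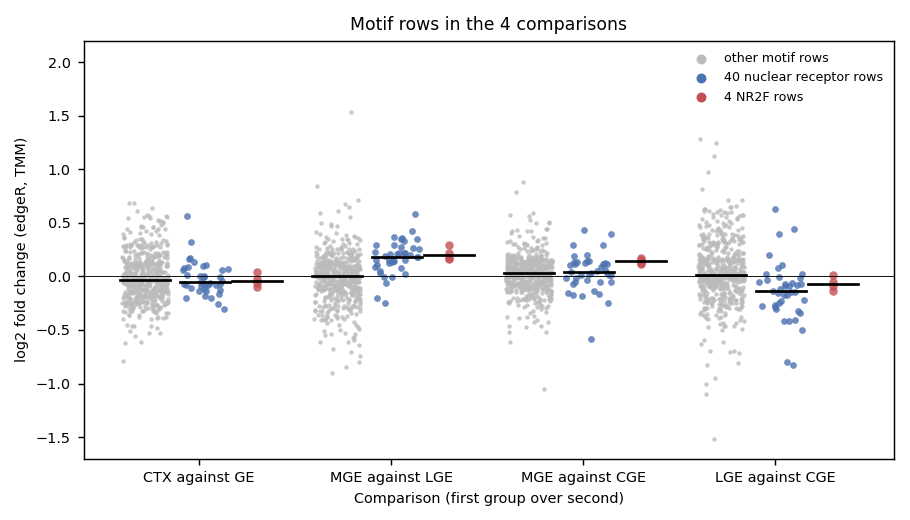
Log2 fold change (edgeR, TMM scaling, vertical) of all other motif rows (grey), the 40 nuclear receptor rows (blue) and the 4 NR2F rows (red) in the 4 comparisons (horizontal), with black lines at the medians. Members lie above other rows in MGE against LGE (median of all 44 members 0.18, 39 above 0) and below them in LGE against CGE (median -0.13, 35 below 0).

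The direction of the members was uneven in 2 of the comparisons. Between MGE and LGE 39 of 44 members were higher in MGE, with a median log2 fold change of 0.18, against 52.8% of all rows and a median of 0.01. Between LGE and CGE 9 of 44 members were higher in LGE and 35 lower, with a median of -0.13, against 51.1% higher and a median of 0.01 over all rows. Between MGE and CGE 30 were higher in MGE (median 0.06; all rows 58.2% and 0.03), and between CTX and GE 15 were higher in CTX (median -0.05; all rows 42.8% and -0.04). Between MGE and LGE, 32 members had no overlap of CPM between the groups, 31 of them higher in MGE, where 35.4% of all rows did not overlap. They did not overlap for 30 members between LGE and CGE, 26 of them lower in LGE, where the background was 59.1%. The counts were 11 between MGE and CGE, against 33.7%, and 7 between CTX and GE, against 26.4%. The comparisons within GE share samples, and LGE replicate 1, the lowest sample of 25 members, enters both uneven ones. Scaled by peak counts instead, the median of all rows itself shifted to 0.21 in MGE against LGE and to -0.17 in LGE against CGE, and the members' median minus that of all rows was 0.17 and -0.14, against 0.17 and -0.13 with TMM scaling.

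Retinoid, fatty acid, vitamin D and other NR1 type rows gave the largest subgroup. None of its rows bore the thyroid hormone receptor symbol THR. Of the 17 rows, 15 were higher in MGE than in LGE (median log2 fold change 0.23) and 13 were lower in LGE than in CGE (median -0.09). The VDR row held 7989 and 8718 CPM in CTX, 9441 and 8386 in MGE, 8269 and 8541 in LGE and 8632 and 7535 in CGE, a range of 1.253-fold in which CGE replicate 2 was lowest. The NR1H2::RXRA row, for a liver X receptor dimer that senses oxysterols, held 267 and 253 CPM in CTX, 296 and 261 in MGE, 217 and 232 in LGE and 241 and 266 in CGE. It was higher in both MGE samples than in both LGE samples (log2 fold change 0.27 ± 0.10 (SE), adjusted p = 0.740). The PPARG row, for a fatty acid receptor of adipocytes, held 255 and 213 CPM in CTX, 235 and 275 in MGE, 174 and 198 in LGE and 212 and 248 in CGE, again without overlap of MGE and LGE (log2 fold change 0.42 ± 0.15 (SE), adjusted p = 0.740). The NR1H4 row, for the bile acid receptor, held 101 and 99.5 CPM in CTX, 125 and 129.5 in MGE, 83.3 and 110.3 in LGE and 105 and 101 in CGE (MGE against LGE, log2 fold change 0.36 ± 0.14 (SE), adjusted p = 0.740). That log2 fold change ranged from 0.19 to 0.58 when single libraries were left out. Retinoic acid receptor rows split: Rarb held 112 and 127 CPM in CTX, 148 and 125 in MGE, 164 and 153 in LGE and 114 and 123 in CGE, the highest values being those of LGE. It was the member with the smallest p between LGE and CGE (log2 fold change 0.44 ± 0.12 (SE), adjusted p = 0.457) and 1 of 5 members lower in MGE than in LGE. Rarb(var.2) (MA0858.1), a second matrix of the same factor, went the other way in both comparisons without overlap. Its values were 86.6 and 96.1 CPM in CTX, 115 and 110.1 in MGE, 96.4 and 103.6 in LGE and 110.2 and 105.3 in CGE. RARA(var.2) held 92.2 and 95.5 CPM in CTX, 129 and 123 in MGE, 109.9 and 112 in LGE and 109.8 and 126 in CGE, with both CTX samples below all GE samples (log2 fold change -0.31 ± 0.08 (SE), adjusted p = 0.115). The row RARA::RXRG, for a heterodimer of 2 retinoid receptors, held 839 and 681 CPM in CTX, 658 and 1040.2 in MGE, 577 and 751 in LGE and 823 and 1089 in CGE, lowest in LGE replicate 1 and highest in CGE replicate 2.

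In the RXR, HNF4 and NR2 subgroup the large Nr2e3 row was nearly flat, at 8723 and 8061 CPM in CTX, 8753 and 7851 in MGE, 8100.4 and 8112 in LGE and 8325 and 7934 in CGE. Its log2 fold change between MGE and LGE was -0.00093 ± 0.07 (SE). The smaller rows of this subgroup differed more: 7 of the 8 were higher in both MGE samples than in both LGE samples, as were 23.0% of all rows, and 7 lower in both LGE samples than in both CGE samples, as were 30.7%. Hnf4a, a liver and gut receptor that is not known for forebrain expression, held 131 and 104 CPM in CTX, 130.2 and 151 in MGE, 116 and 125 in LGE and 130.1 and 176 in CGE. A motif row counts letters in open chromatin and does not measure whether its factor is made.

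The ROR rows read an A/T-rich stretch before the core and belong to receptors known from the circadian clock and from cortical and cerebellar neurons. RORA held 225 and 226 CPM in CTX, 238 and 218 in MGE, 192 and 194 in LGE and 206 and 211 in CGE, higher in both MGE than both LGE samples (log2 fold change 0.21 ± 0.08 (SE), adjusted p = 0.740), and DESeq2 called it in that comparison and between CTX and GE. RORB held 89.2 and 90.4 CPM in CTX, 138 and 83.6 in MGE, 117 and 131 in LGE and 79.2 and 83.0 in CGE, and both LGE samples exceeded both CGE samples (log2 fold change 0.63 ± 0.21 (SE), adjusted p = 0.457). MGE replicate 1 was the highest sample of this row and MGE replicate 2 lay near CGE, and the log2 fold change between MGE and CGE (log2 fold change 0.43 ± 0.21 (SE), adjusted p = 0.962) ranged from 0.07 to 0.76 when single libraries were left out. RORA(var.2) held 86.0 and 82.8 CPM in CTX, 114 and 87.9 in MGE, 112 and 84.9 in LGE and 80.4 and 71.7 in CGE, with the smallest p of the members between MGE and CGE (log2 fold change 0.39 ± 0.18 (SE), adjusted p = 0.962). With single libraries left out, that log2 fold change ranged from 0.23 to 0.58.

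Among the steroid receptor rows of NR3C, NR3C2, the member with the narrowest range, held 122 and 127 CPM in CTX, 126 and 121 in MGE, 117 and 119 in LGE and 122 and 126 in CGE, and its log2 fold changes in the 4 comparisons ran from -0.05 to 0.06. The ESR and ESRR rows, for estrogen and estrogen-related receptors, spread more widely. ESR2, estrogen receptor beta, held 557 and 471 CPM in CTX, 477 and 595 in MGE, 376 and 446 in LGE and 506 and 610.2 in CGE, with LGE below CGE (log2 fold change -0.42 ± 0.17 (SE), adjusted p = 0.457). ESRRB held 54.6 and 45.8 CPM in CTX, 36.5 and 33.3 in MGE, 27.7 and 34.0 in LGE and 38.0 and 39.2 in CGE, and both CTX samples were above all GE samples (log2 fold change 0.56 ± 0.12 (SE), adjusted p = 0.0821, the smallest p of any member). All 5 ESR and ESRR rows were lower in both LGE samples than in both CGE samples, as were 30.7% of all rows. Esrrg held 440.2 and 408 CPM in CTX, 473 and 410.3 in MGE, 356 and 386 in LGE and 410.0 and 906 in CGE. CGE replicate 2 stood apart in this row, while CGE replicate 1 lay among the rest, and the log2 fold change between LGE and CGE carries that gap (log2 fold change -0.80 ± 0.32 (SE), adjusted p = 0.457).

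Among the NR4A rows NR4A2 held 3528 and 3479.7 CPM in CTX, 4351 and 3617 in MGE, 3599 and 3747 in LGE and 3658 and 3688 in CGE, with MGE replicate 1 above the 5 other GE samples, which lay within 3599 to 3747 CPM. NR4A1, an activity-induced receptor, held 707 and 747 CPM in CTX, 845 and 749.6 in MGE, 679.6 and 722 in LGE and 720.2 and 740.5 in CGE, also highest in MGE replicate 1. The dimer row NR4A2::RXRA went the other way, at 143 and 128 CPM in CTX, 94.1 and 169 in MGE, 89.0 and 134 in LGE and 136 and 163 in CGE, with MGE replicate 1 next to the lowest sample. Nr5a2 had the widest spread of the large rows, 2649 and 1662 CPM in CTX, 1789 and 2480.3 in MGE, 1249.8 and 1552 in LGE and 2359.8 and 2689 in CGE. LGE was below CGE without overlap (log2 fold change -0.83 ± 0.26 (SE), adjusted p = 0.457) and below MGE without overlap (log2 fold change 0.58 ± 0.26 (SE), adjusted p = 0.740), while 3 of the 6 GE samples lay between the 2 CTX samples.

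Letters read from the genome gave a second measure that did not use the motif rows. Peaks with the core AGGTCA took between 56.4% (LGE replicate 1) and 64.9% (MGE replicate 1) of a library's peak counts. Peaks with a DR1 took 0.380% and 0.436% in CTX, 0.534% and 0.397% in MGE, 0.279% and 0.333% in LGE, and 0.312% and 0.409% in CGE. The 2 LGE samples were below the 2 MGE samples and the 2 CTX samples. MGE replicate 1 and LGE replicate 1 again held the extremes. Per Mb of called peak the order was another, from 1.37 peaks with a DR1 in LGE replicate 1 and CTX replicate 1 over 1.52 in MGE replicate 1 to 1.70 in CGE replicate 2. The longer letters TCAAGGTCA, the known ESRR and NR5A type monomer site, lay in peaks with 3.43% (LGE replicate 1) to 5.16% (MGE replicate 1) of counts. In CGE replicate 2, the library with the high Esrrg row, they took 4.76%, which was not the highest value. The NR4A type letters AAAGGTCA took 7.20% to 10.4%, and TAGGTCA, part of the ROR type site, 12.2% to 16.8%, both lowest in LGE replicate 1 and highest in MGE replicate 1. Estrogen type inverted repeats GGTCANNNTGACC took 0.194% to 0.265% and glucocorticoid type repeats GNACANNNTGTNC 2.95% to 4.22%, with the same 2 libraries at the ends.

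The letters were also counted away from the peaks. The core was present in 59.1% of the 68274 shared regions and in 63.0% of windows of the same length 10000 bases away. A DR1 was present in 0.360% of the shared regions and in 0.571% of those windows. Among 32851 RefSeq promoter windows of GRCm38, all of 1 length, 16.3% held the core and 0.0396% a DR1. Of the 246 DR1 regions 69 (28%) lay at a promoter, 79 (32.1%) in an intron, 25 (10.2%) over an exon and 73 (29.7%) between genes, against 25.4%, 29.0%, 8.07% and 37.6% of all shared regions. DR1 regions were long, with a median of 2437 bp against 1533 bp, and a longer region has more places for a match.

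Regions with a direct repeat of the core (DR1 to DR5, 1 to 5 bases between the copies, 465 regions) were tested among all 68274. Between CTX and GE edgeR called 91 of 465, or 19.6%, 50 higher and 41 lower in CTX, against 14.9% of all regions (6479 higher and 3681 lower). The direct repeat regions were longer than the rest (median 2498 bp), with more counts behind each, and the difference in the share was not tested. Between MGE and LGE 5 were called, all lower in MGE (1.075%, against 0.694% of all), between MGE and CGE 2 (0.430%, against 0.325%), and between LGE and CGE 0 (against 0%), where 28 had an unadjusted p under 0.05 (4.78% of all regions) and DESeq2 called 3 (0.611% of all). Of the 474 calls between MGE and LGE over all regions, 333 were lower in MGE. Called or not, 58.9% of the direct repeat regions were higher in MGE than in LGE, against 49.8% of all regions. The counts within GE changed with the libraries in the model. With the 6 GE samples alone 64 were called between MGE and LGE and 54 between MGE and CGE, against 10.6% and 9.40% of all regions. Without CTX replicate 1 they were 62 and 50 (10.3% and 9.06% of all) and without CTX replicate 2 61 and 48 (10.1% and 8.87%). With any single MGE, LGE or CGE library left out, which leaves 1 sample in that group, no region of any kind was called in either pair. With the replicate number as a block 1 was called in each, against 9 and 3 of all regions in place of 474 and 222. Between CTX and GE leaving out a CTX library gave 153 (replicate 1) or 157 (replicate 2), with 24.2% and 26.3% of all regions called. Leaving out a GE library gave between 44 (CGE replicate 2) and 65 (MGE replicate 2), with 6.26% and 10.7% of all.

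The regions behind the printed windows had the smallest p values among DR1 regions between CTX and GE, MGE and LGE, and MGE and CGE. The Arid1b intron (chr17:5216837-5222072) had 37.6 and 30.6 CPM in CTX, 7.16 and 6.89 in MGE, 8.16 and 6.40 in LGE and 9.75 and 8.65 in CGE (log2 fold change 2.13 ± 0.18 (SE), adjusted p = 0.00240). The peaks in it covered 5192 and 4549 bp in CTX, 2059 and 2728 in MGE, 1876 and 2207 in LGE and 2509 and 3522 in CGE, and with that length as an offset the log2 fold change was 1.10 (adjusted p = 0.0196). Its repeat lay inside a peak in all 8 samples. The region nearest to Adgrb1 (chr15:74217145-74219130), 297065 bp from the start of that adhesion receptor gene, had 19.6 and 14.7 CPM in CTX, 2.52 and 1.68 in MGE, 3.81 and 5.18 in LGE and 1.73 and 2.04 in CGE (log2 fold change 2.71 ± 0.25 (SE), adjusted p = 0.00267), and 1.55 with the length offset (adjusted p = 0.00313). In both, the 2 CTX samples exceeded every GE sample. The region nearest to Slc1a3 (chr15:8779980-8784036), 69216 bp from the start of the glial glutamate transporter gene, had 50.3 and 45.3 CPM in CTX, 4.82 and 3.81 in MGE, 57.7 and 43.5 in LGE and 46.8 and 34.5 in CGE. MGE stood apart from all other samples, with log2 fold change -3.55 ± 0.25 (SE), adjusted p = 0.0150 against LGE and log2 fold change -3.23 ± 0.25 (SE), adjusted p = 0.0261 against CGE. With the length offset these were -2.39 (adjusted p = 0.0155) and -1.91 (adjusted p = 0.0473). CTX against the mean of GE, which holds the low MGE values, had log2 fold change 1.21 ± 0.17 (SE), adjusted p = 0.00689. Its repeat lay under a peak only in the CTX and CGE libraries, 221 bp from the end of the merged region, so in MGE and LGE the counts came from other parts of it. The Col4a4 intron (chr1:82473902-82477321) had 19.6 and 17.6 CPM in CTX, 7.84 and 7.03 in MGE, 28.8 and 23.0 in LGE and 19.9 and 17.5 in CGE (log2 fold change -1.80 ± 0.22 (SE), adjusted p = 0.0334), with adjusted p = 0.0575 under the length offset. Its repeat lay under a peak in every library except the 2 of MGE. The region nearest to Wnt4 (chr4:137211197-137212773), 64716 bp from the start of that secreted ligand's gene, had 3.44 and 2.24 CPM in CTX, 8.65 and 7.58 in MGE, 2.26 and 2.95 in LGE and 1.21 and 0.910 in CGE (log2 fold change 2.93 ± 0.38 (SE), adjusted p = 0.0420), with adjusted p = 0.181 under the length offset. Its repeat lay under a peak in CTX replicate 1 and both MGE samples. With the replicate number as a block the adjusted p was 0.0296 and 0.0366 for the Slc1a3 region, 0.0546 for the Col4a4 region and 0.0701 for the Wnt4 region. None of the calls within GE named here held when any 1 of the MGE, LGE or CGE libraries was left out, nor did that of any other region. With single libraries left out, the log2 fold change between MGE and LGE ran from -3.74 to -3.33 (Slc1a3 region) and from -1.95 to -1.63 (Col4a4 region). Between MGE and CGE it ran from -3.44 to -3.00 (Slc1a3 region) and from 2.74 to 3.15 (Wnt4 region).

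The DR1 regions with the most counts differed less. A 48297 bp merged region over Rhbg, an ammonium transporter gene (chr3:88196603-88244899), had 769 and 922 CPM in CTX, 863 and 690.0 in MGE, 433 and 434 in LGE and 463 and 475 in CGE (log2 fold change 0.65 ± 0.12 (SE), adjusted p = 0.0146), with both LGE and both CGE samples below MGE and CTX. This call between CTX and GE was lost without LGE replicate 1 (adjusted p = 0.0528). A 24122 bp region at the Skida1 and Mllt10 promoters (chr2:18036749-18060870) had 241 and 305 CPM in CTX, 334 and 333 in MGE, 271 and 336 in LGE and 223 and 301 in CGE, with overlap in each comparison apart from MGE against CGE. Between LGE and CGE the smallest p values were those of a region near Atxn1 (chr13:46038219-46044012; log2 fold change 0.69 ± 0.16 (SE), adjusted p = 0.905) and a region near Lyrm9 (chr11:78814116-78819293; log2 fold change -0.75 ± 0.20 (SE), adjusted p = 0.905). The Atxn1 region had 32.7 and 26.8 CPM in CTX, 31.4 and 31.4 in MGE, 64.4 and 72.9 in LGE and 44.8 and 40.5 in CGE, with both LGE samples above all others. It was called lower in MGE than in LGE (log2 fold change -1.13 ± 0.16 (SE), adjusted p = 0.0413) and lower in CTX than in GE (log2 fold change -0.60 ± 0.13 (SE), adjusted p = 0.0252), where the CTX and MGE values overlapped. The first of these calls was lost with the replicate block (adjusted p = 0.0612), with the length offset (adjusted p = 0.0677) and without any 1 MGE, LGE or CGE library, and the second without any 1 library other than CTX replicate 1.

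Accessibility of the genes that encode the receptors and handle their ligands was read from the peaks over each gene and 2000 bp upstream. Of 73 listed genes (48 receptors, 18 of the ligand pathway and 7 cofactors) 72 were tested. Between CTX and GE edgeR called 5 of 72 (6.94%), 4 higher and 1 lower in CTX, against 4.51% of all 17357 genes. The calls were 2 of 47 tested receptor genes, 3 of 18 ligand pathway genes and 0 of 7 cofactor genes. Dio2, the deiodinase that makes active thyroid hormone, had 21.6 and 27.0 CPM in CTX, 2.03 and 2.44 in MGE, 4.27 and 3.94 in LGE and 4.20 and 2.71 in CGE (log2 fold change 2.94 ± 0.23 (SE), adjusted p = 0.00586). Rora had 448 and 491 CPM in CTX, 201 and 249 in MGE, 227 and 237 in LGE and 276 and 264 in CGE (log2 fold change 0.96 ± 0.12 (SE), adjusted p = 0.00977). Vdr had 26.2 and 18.4 CPM in CTX, 10.2 and 9.36 in MGE, 8.88 and 8.48 in LGE and 12.6 and 9.92 in CGE (log2 fold change 1.18 ± 0.19 (SE), adjusted p = 0.0200). For each of these 3 both CTX samples lay outside the range of the 6 GE samples. These sums moved with the length called as peaks. Peaks over Dio2 covered 4276 and 4872 bp in CTX and 535 to 1061 bp in GE, and the CPM per covered kb was 5.06 and 5.54 in CTX and 2.55 to 7.99 in GE. With covered length as an offset, an alternative chosen after the values were seen, the median of all genes shifted to -0.14 and 0 of the 72 were called (9 of all genes). The log2 fold changes were then 0.43 for Dio2 and 0.25 for Rora, and that of Vdr turned to -0.21. The call of Vdr was lost without CTX replicate 1, either LGE library or CGE replicate 2. In the other comparisons edgeR called 0 of 72 (0.0864%, 0.0864% and 0% of all genes were called), for the pairs MGE and LGE, MGE and CGE, and LGE and CGE in turn. In the same order 12, 10 and 7 listed genes had an unadjusted p under 0.05, against 6.0%, 6.60% and 1.99% of all genes, and DESeq2 called 6, 4 and 2, against 2.71%, 2.52% and 0.559%. Between CTX and GE 29 of 72 listed genes had an unadjusted edgeR p under 0.05 (40.3%, against 18.4% of all genes), and DESeq2 called 20, against 15%.

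COUP-TF genes and COUP-TF motif rows did not have the same order of samples. Nr2f1 (chr13:78188973-78199757, minus strand) had 464 and 281 CPM in CTX, 304 and 281 in MGE, 176 and 157 in LGE and 439 and 670.0 in CGE. Nr2f2 (chr7:70351944-70366735, minus strand) had 125 and 135 CPM in CTX, 243 and 218 in MGE, 81.2 and 125 in LGE and 253 and 488 in CGE. Both genes were highest in CGE replicate 2 and lowest in an LGE sample, with LGE below CGE without overlap (log2 fold change -1.73 ± 0.29 (SE), adjusted p = 1.0 for Nr2f1 and log2 fold change -1.84 ± 0.33 (SE), adjusted p = 1.0 for Nr2f2). The peaks over Nr2f1 covered 39450.0 and 27980.0 bp in CTX, 27517 and 31553 in MGE, 11977 and 14088 in LGE and 31199 and 53877 in CGE, and those over Nr2f2 16858 and 19317 bp in CTX, 26782 and 27776 in MGE, 7808 and 16071 in LGE and 28852 and 49591 in CGE. Per covered kb the values ran only from 8.91 to 14.7 CPM for Nr2f1 and from 7.0 to 10.4 CPM for Nr2f2, highest in LGE replicate 1 for both. In at least 1 library every count of Nr2f1 lay in peaks shared with another gene, as did those of Nr2f6, so these 2 genes cannot be told apart from their neighbors there. Nr2f6 had 33.8 and 51.1 CPM in CTX, 72.5 and 58.9 in MGE, 63.4 and 63.5 in LGE and 44.9 and 54.2 in CGE. The NR2F rows, by contrast, were highest in MGE replicate 1, and CGE replicate 1, with 439 CPM over Nr2f1, had their lowest share, 0.114%.

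**Figure D4:**
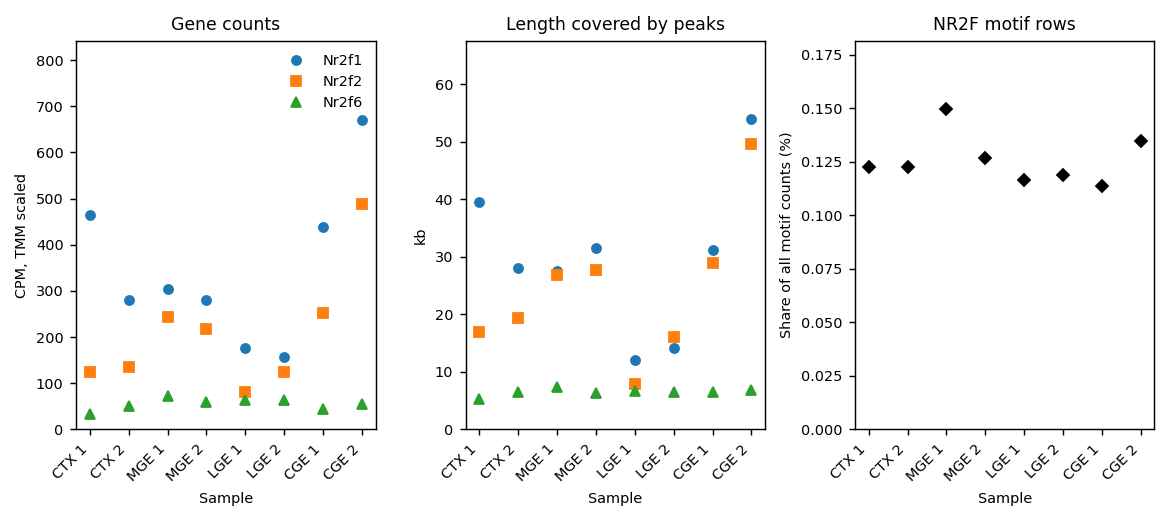
By sample (horizontal), CPM of the genes Nr2f1, Nr2f2 and Nr2f6 (left), the length covered by the peaks counted for them in kb (middle) and the share of all motif counts in the 4 NR2F rows in % (right). All axes start at 0. CGE replicate 2 had the most counts over Nr2f1 (670.0 CPM) and the longest coverage (53877 bp), while the NR2F row share was highest in MGE replicate 1.

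Beyond Rora and Vdr, edgeR called no receptor gene in any comparison. Between CTX and GE 18 of the 47 tested receptor genes had an unadjusted edgeR p under 0.05 (38.3%, against 18.4% of all genes). DESeq2 called 10 receptor genes there, against 15% of all genes. Of the other receptor genes only Rarb, Rxra and Rara are described here. Rarb had 127 and 117 CPM in CTX, 77.9 and 96.1 in MGE, 139 and 124 in LGE and 159 and 128 in CGE, lower in MGE than in LGE (log2 fold change -0.59 ± 0.17 (SE), adjusted p = 0.603) and CGE (log2 fold change -0.72 ± 0.17 (SE), adjusted p = 0.480) without overlap. The Rarb motif row (MA0857.1) was lower in MGE than in LGE and, opposite to the gene, higher in MGE than in CGE, also without overlap. The Rarb(var.2) row was higher in MGE than in LGE without overlap, and its MGE and CGE samples overlapped. Rxra had 129 and 72.6 CPM in CTX, 163 and 78.7 in MGE, 73.1 and 76.9 in LGE and 71.6 and 74.4 in CGE, in which MGE replicate 1 and CTX replicate 1 stood above the rest. Its peaks covered 29000 bp in MGE replicate 1 and 20282 bp in CTX replicate 1, against 9346 to 18464 bp in the others. Rara had 261 and 254 CPM in CTX, 321 and 226 in MGE, 263 and 237 in LGE and 234 and 235 in CGE, with its smallest p between MGE and CGE (log2 fold change 0.22 ± 0.19 (SE), adjusted p = 0.807).

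Within each library nuclei were grouped by clustering, and clusters with at least 3 raised markers of a fixed list were called progenitor-like, GABAergic neuron-like or glutamatergic neuron-like. Progenitor-like nuclei (by a list with Fabp7, Slc1a3 and Hes5) made up 25.4% to 41.5% of a library. GABAergic neuron-like nuclei (by a list with Dlx5, Dlx6 and Slc32a1) made up 31.3% to 53.4% in GE and 4.80% of CTX replicate 1, with no such cluster in CTX replicate 2. Glutamatergic neuron-like nuclei (Neurod6, Slc17a6 and Neurod2) made up 14% and 19.1% in CTX, and 4.73% to 19.7% in the 5 GE libraries that had such a cluster, MGE replicate 1 being the one without. The rest stayed unnamed: 50.6% and 60.1% of the nuclei in CTX, 27.2% in CGE replicate 2 and 0.734% to 10.3% in the other libraries. These include nuclei that were not clustered and clusters that scored highest for endothelial, microglial, mural or mesenchymal, or erythroid markers. Among them were 1534 nuclei of CTX replicate 1 (mural or mesenchymal, 4 raised markers) and the 35 of LGE replicate 2 (endothelial, 7 raised markers). Named clusters had 5 to 11 raised markers if progenitor-like, 3 to 9 if GABAergic and 4 to 8 if glutamatergic neuron-like. Neurod6, Slc17a6 and Neurod2 were together among the 10 leading genes only in clusters of both LGE libraries and CGE replicate 1, not in CTX. Dlx5, Dlx6 and Slc32a1 were together among them only in a cluster of each CGE library. Fabp7 was among them only in MGE replicate 2 and LGE replicate 2, and Slc1a3 and Hes5 in no cluster. The glutamatergic neuron-like cluster of CTX replicate 1 had 4 raised markers, at a median log2 fold of 0.29. A GABAergic neuron-like cluster of MGE replicate 1 (993 nuclei) had 3, also at 0.29. Because clusters are made from the same counts, the values by class are a description.

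The share of nuclear receptor rows was higher in progenitor-like than in neuron-like nuclei of the same library, by less than libraries differed. For all members it exceeded that of GABAergic neuron-like nuclei in 7 of 7 libraries, by 0.211% to 2.42% of the latter's value, and that of glutamatergic neuron-like nuclei in 7 of 7, by 0.722% to 4.39% in the same way. In CGE replicate 1, for example, it was 3.56% in progenitor-like, 3.50% in GABAergic and 3.41% in glutamatergic neuron-like nuclei. For NR2F rows the order was the same in 6 of 7 libraries against GABAergic and in 7 of 7 against glutamatergic neuron-like nuclei. The exception, LGE replicate 1, had 0.117% in both progenitor-like and GABAergic neuron-like nuclei. For all members the unnamed nuclei exceeded progenitor-like ones in CTX replicate 2 (3.39% against 3.37%) and LGE replicate 1 (3.24% against 3.22%). The same held in MGE replicate 1 (3.80% against 3.78%) and MGE replicate 2 (3.71% against 3.64%). In CTX replicate 1 and both CGE libraries the unnamed nuclei were lower. LGE replicate 2 had only 35 unnamed nuclei and no value. Within progenitor-like nuclei alone the NR2F share was 0.153% and 0.129% in MGE, 0.117% and 0.120% in LGE, 0.117% and 0.138% in CGE, and 0.125% and 0.123% in CTX, so the spread between libraries was present within the class. Progenitor-like nuclei were also deeper than GABAergic neuron-like ones, with medians of 362180 to 791017 motif counts against 204929 to 387756. Unnamed nuclei were deeper still in MGE replicate 1 (median 1391820, against 446947 in progenitor-like nuclei) but shallow in MGE replicate 2 (29773.5). The part of depth in these differences was not tested.

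**Figure D5:**
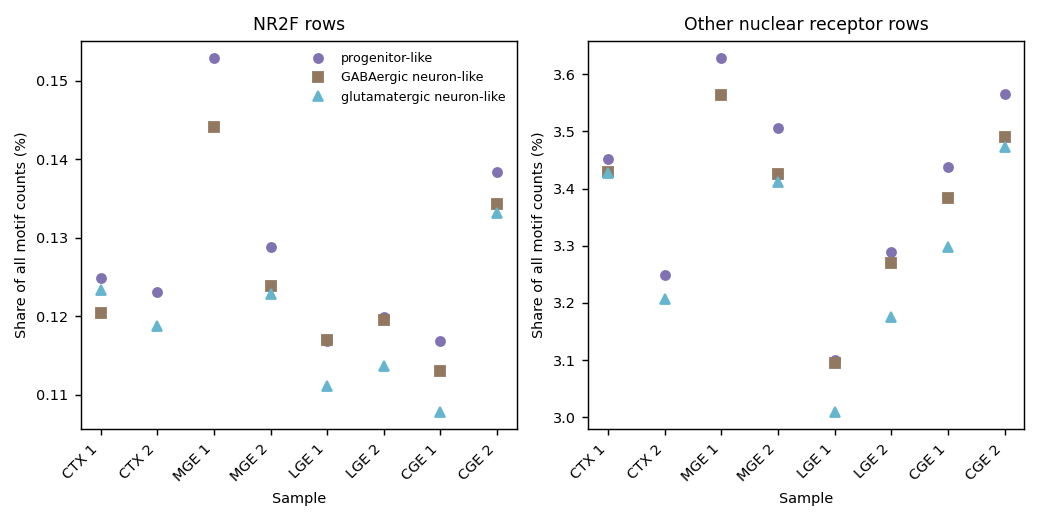
Share of all motif counts (%) in progenitor-like (circles), GABAergic neuron-like (squares) and glutamatergic neuron-like (triangles) nuclei of each sample (horizontal), for the 4 NR2F rows (left) and the 40 other rows (right); the axes do not start at 0. In MGE replicate 1 the NR2F share was 0.153% in progenitor-like and 0.144% in GABAergic neuron-like nuclei, above every class of the other samples.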

How the data were processed

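Nuclei of 8 samples were profiled by single-nucleus ATAC-seq. The submitters' processing notes name Cell Ranger ATAC 1.2.0 and GRCm38 (mm10). The authors deposited, for each sample, a peak list, raw counts per peak and nucleus, and raw counts per JASPAR-type motif and nucleus, with no normalization. The barcode filter is not stated, and the binding matrices are named only by the JASPAR numbers in the row names. All deposited barcodes, 3465 to 6845 a sample, were kept, and no doublets were removed. Each sample had its own files, and 0 columns belonged to no sample.

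Counts were summed over the nuclei of a sample. Overlapping peaks of the samples were merged into regions, and a gene's count was that of peaks over its body and 2000 bp upstream (GENCODE M21, 21938 protein-coding genes). CPM are TMM scaled for genes and regions and are relative to all motif counts for motifs. Motifs, genes and regions were each tested across all features with edgeR 4.0.16 (estimateDisp, glmQLFit, glmQLFTest, TMM, filterByExpr) in R 4.3.3, in 1 model of 4 groups of 2 samples, with CTX set against the mean of the 3 GE groups. Calls were made at 0.05 after Benjamini-Hochberg adjustment, and the SE is that implied by the test. Nothing says that the 2 samples of a group came from separate litters, so p-values measure the spread between these samples, which may be technical. DESeq2 1.42.0 and limma 3.58.1 were alternatives. The fits were tested on simulated data with changes larger than that of any member row, so that test cannot say how often changes of the members' size are called.

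Nuclei with at least 500 regions were clustered in each library alone (latent semantic indexing with 30 components less the first, 20 neighbors, Leiden resolution 0.5, Scanpy 1.11.5). A cluster took the name of the list with the highest median fold if at least 3 of its markers were 1.25-fold or more above the rest of the library and no other list had more markers among the cluster's 10 leading genes. Only the progenitor, GABAergic neuron and glutamatergic neuron lists gave names. Clusters that scored highest for the endothelial, microglial, mural or mesenchymal, or erythroid list stayed unnamed, also where they met the other conditions. This scoring rule was set after clusters had been seen.

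Named motif rows were the NR2F rows, the row with the most counts in each subgroup, the 3 members with the smallest p in each comparison and the 5 other motifs most correlated with NR2F. Named genes were Nr2f1, Nr2f2, Nr2f6, Rara, Rarb, Rxra and up to 10 called listed genes a comparison. Named regions were the 2 DR1 regions with the most counts and the 2 with the smallest p in each comparison. The rows Esrrg, Hnf4a, Rxra, RXRG, NR4A1, RARA::RXRG, NR4A2::RXRA and Rarb(var.2) were named after their values were seen. Some rows and genes that these rules name are not reported here. The members and lists were chosen with earlier results of these data known.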

Additional observations from a re-analysis of the deposited data

Results flagged for a closer look

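In 3 of 56 motif rows, shares and genes examined over the 6 GE samples, the highest sample stood apart by Dixon's test (its gap to the next sample over the whole range), where chance gives about 5%. The Esrrg motif row had 906 CPM in CGE replicate 2, against 356 to 473 CPM in the other GE samples (ratio 0.787). The NR4A2 motif row had 4351 CPM in MGE replicate 1, against 3599 to 3747 CPM (ratio 0.803). The Rxra gene had 163 CPM in MGE replicate 1, against 71.6 to 78.7 CPM (ratio 0.922), and its peaks covered 29000 bp there. The causes were not tested.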

How the results depend on the processing

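The 0 calls among nuclear receptor rows held under limma and every alternative run with edgeR, each library left out in turn (0 to 0) and a replicate block included. DESeq2 called 3 between CTX and GE and 1 between MGE and LGE. Per 100 counts in peaks, the members' ratio was 1.245 for MGE over LGE and 0.830 for LGE over CGE (1.243 and 0.829 without NR2F). CTX over GE was then 1.01, in place of 0.987. Leaving out single libraries took CTX over GE from 0.960 to 1.01 (NR2F 0.947 to 1.00) and LGE over CGE for NR2F from 0.874 to 1.04, so that these had no fixed direction, while it kept MGE above LGE (1.09 to 1.15, NR2F 1.08 to 1.27).

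For the 72 tested listed genes DESeq2 called 20 between CTX and GE, 6 between MGE and LGE, 4 between MGE and CGE and 2 between LGE and CGE. Of all genes it called 15%, 2.71%, 2.52% and 0.559% in the same order. Between CTX and GE, leaving out single libraries gave 3 to 7 calls (1.30% to 10.4% of all genes), counting start-site peaks only gave 1 (1.29%), and the covered-length offset, chosen after seeing the data, gave 0, with Vdr at -0.21. Over all genes it called 9 and DESeq2 2595, against 782.

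For direct repeat regions DESeq2 called 143 between CTX and GE, 49 between MGE and LGE, 35 between MGE and CGE and 3 between LGE and CGE (23.1%, 7.40%, 6.61% and 0.611% of all regions). The covered-length offset gave 58, 2 and 1 in the first 3 of these (9.17%, 0.422% and 0.0659% of all regions), and leaving out single libraries 44 to 157, 0 to 62 and 0 to 50 (6.26% to 26.3%, 0% to 10.3% and 0% to 9.06%). The GE samples alone gave 64 (MGE and LGE) and 54 (MGE and CGE). With the replicate number as a block, 1 region was called in each of these pairs, and the block moved no other count of called members by over 1.5 times. Over motifs, deviations of same-numbered samples correlated at 0.28 to 0.42 between GE groups and at -0.45 to -0.24 between CTX and a GE group. Over genes they correlated at 0.04 to 0.27 in all pairs. Over regions they ran from -0.04 to 0.31, with 0.17 for CTX and LGE and 0.15 for CTX and CGE. As the sign was not the same in all pairs over motifs or regions, the numbers were not taken to pair all samples. Over all regions the calls between CTX and GE were 10160, against 15780 with DESeq2 and 6260 with the offset. Those between MGE and LGE were 474, against 5049, 288, 7269 in the GE samples alone, 9 with the block and 0 without any single MGE, LGE or CGE library. The causes were not tested.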
